A study of Mus musculus with 39 samples.

Results

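The step from day 1 to day 3 after cardiotoxin injury was followed in whole tibialis anterior muscle of Tcrd-DTR mice given diphtheria toxin. The 3 libraries labelled D3.DTR were compared with the 3 labelled D1.DTR over every gene with 10 or more counts in at least 3 of these 6 libraries. This rule kept 13785 of the 55011 gene symbols in the table, and these 13785 genes, called members here, held 98.9% of the counts of the 6 libraries. A further 10108 symbols had no count in the 6 libraries, and 31118 had counts but stayed under the rule. At its edge, the 323 genes whose third-highest count was exactly 10 held 33 to 121 counts over the 6 libraries (median 56), and the 363 genes with 9 in that place held 32 to 114 (median 50). Of the members, 11295 reached 10 counts in all 6 libraries, 184 reached it in all day 3 and no day 1 libraries, and 118 in all day 1 and no day 3 libraries. Members that reached it on a single day entered through that day, so their difference between days was partly fixed by the rule.

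The series measured polyA RNA in 39 mouse libraries, and 23 of them followed regenerating muscle of wild-type and Tcrd-DTR mice at days 1, 3, 7 and 14. Each whole-muscle library was made from 2 ng of RNA from tissue lysed in Trizol. Mice of both genotypes received intraperitoneal diphtheria toxin and a cardiotoxin injury of the hindlimb muscle, so toxin and injury were shared by the controls. Tcrd-DTR names a diphtheria toxin receptor tied to Tcrd, the gene of the T cell receptor delta chain, so that the toxin acts on cells using this gene; the dose of toxin, the age and sex of the mice and any pooling of muscles were not stated in the labels. The study describes its replicates as independent biological ones, and a difference in handling between the days and the day itself cannot be told apart. In whole tissue, fewer cells of a type and less RNA per cell cannot be told apart either.

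Cardiotoxin destroys muscle fibres and spares most satellite cells, the stem cells of muscle. Neutrophils enter first, monocytes follow and become macrophages that clear debris and then take on a repair state, while satellite cells divide, differentiate and fuse into new fibres that at first make embryonic myosin. Gamma-delta T cells are a small lymphocyte population known as an early source of interleukin 17, a cytokine that draws and sustains neutrophils.

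Receptor genes of the targeted cells come first, as a check of the labels. Trdc, the constant region of the delta chain, had 1, 4 and 2 counts in the D1.DTR libraries and 0 in each D3.DTR library, a count of 0 that allows up to 3 counts in a library. With Trdv4, Trgv6 and the gamma constant regions Trgc1, Trgc2 and Trgc4 added, 6 receptor genes had 6, 7 and 6 counts at day 1 and 5, 5 and 0 at day 3. In wild-type libraries the same sums were 4, 7 and 4 at day 1 and 27, 18 and 19 at day 3. The day 3 libraries labelled DTR thus lay below the wild-type ones, whereas at day 1 the counts overlapped and the label could not be checked at this depth. Between the days the DTR sums were 1.36 ± 0.427 and 0.732 ± 0.634 CPM, counts scaled to a library of 1000000 (SD, n = 3; exact permutation test, 2-sided, p = 0.3, where 3 against 3 libraries cannot go below 0.1). No gamma-delta receptor gene was a member. Il17a had 0 counts at day 1 and 3 at day 3 over the 3 libraries, and Il17f had 6 and 12, too few for a comparison.

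Libraries held 3782192 to 6599665 counts. D1.DTR replicate 2 stood apart from the other day 1 libraries: it held 35394 genes with a count against 31846 and 30942, and 2880 against 1072 and 1108 CPM in olfactory and vomeronasal receptor genes, which muscle is not known to use. Day 3 libraries held 24646 to 29179 detected genes (exact permutation test, p = 0.1, the smallest possible). In a principal component analysis the first component, with 55.6% of the variance, separated the days, and the second, with 16.2%, set D1.DTR replicate 2 apart. Its part in the results was not tested beyond leaving it out, and for some results that moved without it that value is given. A result given without such a value may still move when this library is left out.

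Over the whole step, 2587 of 13785 members changed, which is 18.8%. Of these, 1411 (10.2% of members) rose and 1176 (8.53%) fell, by edgeR's quasi-likelihood test at a Benjamini-Hochberg adjusted p under 0.05, the test and adjustment behind every adjusted p given here. At 2-fold or more 1765 changed (12.8%), 1045 upward (7.58%) and 720 downward (5.22%). Log2 changes (day 3 over day 1) ranged from −9.54 to 6.47 with a median of −0.06 and a median standard error of 0.30. The 3 libraries of one day did not overlap with those of the other for 5021 members (36.4%), 2513 of them among the 2587. Without D1.DTR replicate 2 the test called 3815 genes, and without any other single library 1516 to 1893. Scaling by library totals alone moved the median log2 change of all members to 0.24 and the share of calls that rose from 54.5% to 79.8%, and testing every gene with a count moved that share to 65.9%. Directions below are therefore relative to the bulk of members.

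**Figure D1:**
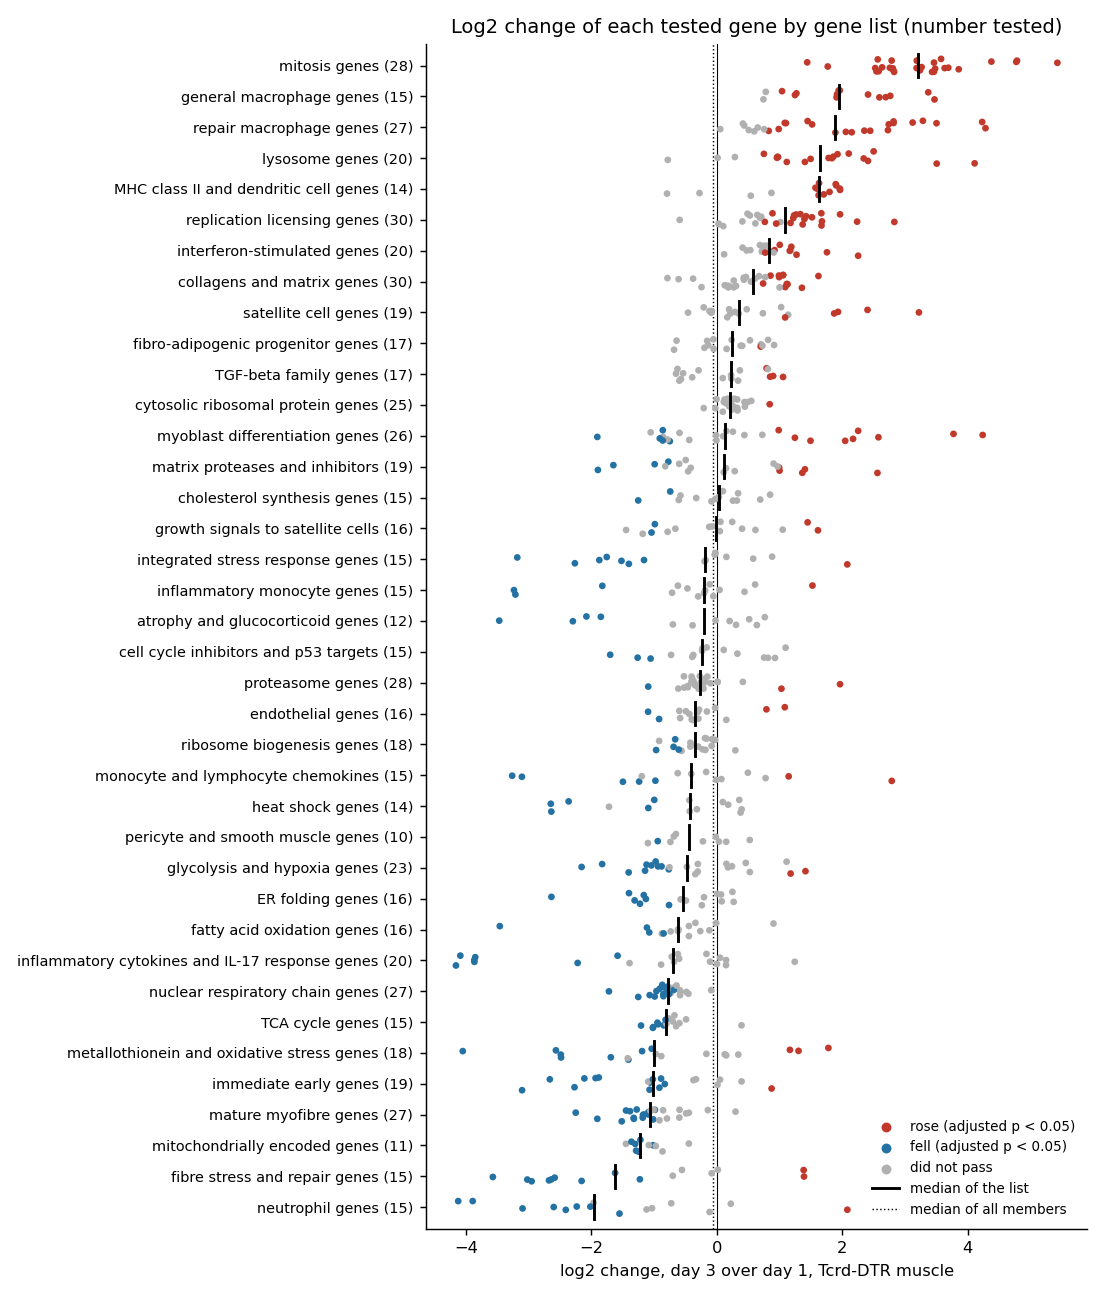
Each point is the log2 change (day 3 over day 1, horizontal axis) of one gene in Tcrd-DTR muscle, arranged by gene list on the vertical axis for lists with 10 or more tested genes. Red and blue points passed the test upward and downward, grey points did not, black bars are list medians and the dotted line is the median of all members at −0.06; mitosis genes lie highest (median 3.21) and neutrophil genes lowest (median −1.97).

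Mitosis genes had the highest median log2 change among the lists with 10 or more tested genes. Of 28 genes of mitosis (kinases, spindle, kinetochore and cytokinesis), 28 rose, with a median log2 change of 3.21 against −0.06 over all members. Ccnb2, a B-type cyclin that drives entry into mitosis, stood at 1.13, 0.252 and 3.21 CPM at day 1 and 63.5, 57.4 and 84.4 at day 3, and rose 43.2-fold (log2 change 5.43, SE 0.44, adjusted p = 8.30e-06). Ccnb1, the other main B-type cyclin, stood at 0.908, 2.27 and 1.15 CPM at day 1 and 40.6, 35.6 and 42.7 at day 3 (log2 change 4.78, SE 0.36, adjusted p = 5.42e-06). Plk1, a kinase of the spindle and centrosome, stood at 0.454, 2.02 and 1.83 CPM at day 1 and 44.8, 33.3 and 41.4 at day 3 (log2 change 4.79, SE 0.40, adjusted p = 9.00e-06). All day 3 libraries lay far above all day 1 libraries for these 3 genes, which were near the detection limit at day 1. They passed the count rule through their day 3 libraries, so this separation was partly fixed by the rule. Birc5, the survivin subunit of the chromosomal passenger complex, rose 20.8-fold from 5.22, 4.54 and 2.52 CPM at day 1 to 76.7, 80.2 and 99.6 at day 3 (log2 change 4.38, SE 0.29, adjusted p = 3.75e-06), and Mki67, the proliferation marker Ki-67, rose 9.11-fold from 6.58, 8.32 and 9.39 CPM at day 1 to 72.2, 76.2 and 73.4 at day 3 (log2 change 3.19, SE 0.23, adjusted p = 4.48e-06). The smallest rise on the list was that of Tpx2, a spindle assembly factor, at a log2 change of 1.44 (SE 0.27, adjusted p = 0.00212). Other division genes among the 15 largest rises were Cdca3 (log2 change 4.65), Pimreg (4.52), Ccna2 (3.86), Knstrn (3.68) and Kif20a (3.63). Pimreg averaged 0.967 CPM at day 1 and passed the count rule through its day 3 libraries.

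Genes for DNA replication rose in part. Of 30 genes of origin licensing, helicase, polymerase and nucleotide supply, 18 rose, none fell and 12 did not pass (median log2 change 1.10). Rrm2, the regulated subunit of ribonucleotide reductase, stood at 18.8, 22.4 and 26.8 CPM at day 1 and 161, 126 and 198 at day 3 and rose 7.12-fold (log2 change 2.83, SE 0.24, adjusted p = 9.00e-06). Tk1, thymidine kinase, stood at 10.4, 19.9 and 13.98 CPM at day 1 and 66.6, 68.3 and 73.8 at day 3 (log2 change 2.24, SE 0.25, adjusted p = 4.72e-05). Subunits of the replicative helicase rose by smaller amounts, Mcm6 from 34.95, 82.7 and 64.4 CPM at day 1 to 138, 139.8 and 159 at day 3 (log2 change 1.26, SE 0.26, adjusted p = 0.0047) and Mcm2 by a log2 change of 1.22 (SE 0.23, adjusted p = 0.00272). D1.DTR replicate 2 was the highest day 1 library for Mcm6. The count of 18 was 9 without D1.DTR replicate 3 and 10 without D3.DTR replicate 3. Among 15 inhibitors of the cycle and targets of p53, none rose and 3 fell: Mdm2, the ligase of p53, by a log2 change of −1.26 (SE 0.19, adjusted p = 5.82e-04), Gadd45a by −1.70 (SE 0.36, adjusted p = 0.00492), and Cdkn1a, the inhibitor p21, by −1.06 (SE 0.24, adjusted p = 0.00819). Cdkn1a did not pass under library totals alone or without D3.DTR replicate 2 (adjusted p between 0.0532 and 0.0616). The median of that list was −0.23, and it was 0.02 under library totals alone and 0.08 without D1.DTR replicate 2.

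Promoters of division genes are shown because the members moved together. The windows run from 250 bases before to 50 after the RefSeq start (build GRCm38.p6), and 10498 members and 27025 genes in all had one. For Plk1, Ccnb1 and Rrm2 the bases after this start were found among the first bases of an annotated transcript. For Ccnb2, Mcm6, Birc5 and Tk1 they were not, so matches or their absence hold for the window only. In the first 3, capitals mark the cell cycle homology region TTTGAA (CHR) and the CCAAT box, each searched on both strands. Capitals in the fourth mark E2F motifs (TTTCCCGC, TTCCCGCC, TTTGGCGC or TTTGGCGG, the first 2 of which share letters), also on both strands.
Ccnb2 (chr9:70421505-70421804, minus strand): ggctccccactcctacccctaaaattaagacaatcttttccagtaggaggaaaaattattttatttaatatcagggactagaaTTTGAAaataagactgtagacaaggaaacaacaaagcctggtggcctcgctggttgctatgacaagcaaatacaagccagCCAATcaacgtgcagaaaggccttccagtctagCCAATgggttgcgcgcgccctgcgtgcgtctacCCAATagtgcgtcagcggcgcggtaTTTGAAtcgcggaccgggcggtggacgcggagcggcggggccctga
Plk1 (chr7:122159185-122159484, plus strand): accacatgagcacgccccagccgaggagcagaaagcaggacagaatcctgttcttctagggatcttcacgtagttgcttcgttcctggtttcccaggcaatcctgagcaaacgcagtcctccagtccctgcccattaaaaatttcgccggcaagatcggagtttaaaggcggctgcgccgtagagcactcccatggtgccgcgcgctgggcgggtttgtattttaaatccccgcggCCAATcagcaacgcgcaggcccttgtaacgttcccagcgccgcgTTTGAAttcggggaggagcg
Ccnb1 (chr13:100786437-100786736, minus strand): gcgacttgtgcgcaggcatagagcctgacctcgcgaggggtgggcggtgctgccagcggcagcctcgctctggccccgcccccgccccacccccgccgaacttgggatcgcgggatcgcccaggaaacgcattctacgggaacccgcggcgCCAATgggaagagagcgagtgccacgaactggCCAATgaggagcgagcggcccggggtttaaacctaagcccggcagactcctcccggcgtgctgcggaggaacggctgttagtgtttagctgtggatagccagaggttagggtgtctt
Mcm6 (chr1:128359656-128359955, minus strand): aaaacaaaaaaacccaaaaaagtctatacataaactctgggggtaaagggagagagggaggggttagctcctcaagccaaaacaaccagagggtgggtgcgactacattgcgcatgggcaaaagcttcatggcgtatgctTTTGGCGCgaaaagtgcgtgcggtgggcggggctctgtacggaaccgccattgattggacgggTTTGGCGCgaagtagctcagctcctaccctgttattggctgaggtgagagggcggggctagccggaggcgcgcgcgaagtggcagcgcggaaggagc
The Ccnb2 window held 2 CHR and 3 CCAAT matches, the Plk1 window 1 of each, the Ccnb1 window 0 and 2, and the Mcm6 window 2 E2F matches. CHR letters were found in 17 of 24 windows of the mitosis list (70.8%), against 12.1% of members and 18.1% of all windows. CCAAT was found in 19 of those 24 (79.2%), against 38.3% of members and 37.9% of all windows. An E2F match was found in 13 of 23 windows of the replication list (56.5%), against 6.74% of members and 3.78% of all windows, and in 0 of 24 of the mitosis list. The windows of Birc5 (CHR and CCAAT) and of Rrm2 and Tk1 (E2F), genes of the 2 lists described above, held 0 matches. These matches describe the letters only.

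Macrophage genes formed the other large block of rises. Of 15 genes shared by most macrophages, 13 rose and 2 did not pass (median log2 change 1.94), and the summed level of the list was 1677, 2894 and 1396 CPM at day 1 and 9921, 9363 and 11360.2 at day 3. Adgre1, the F4/80 antigen, stood at 36.1, 56.97 and 33.9 CPM at day 1 and 312, 249 and 303 at day 3 and rose 6.81-fold (log2 change 2.77, SE 0.24, adjusted p = 1.30e-05). Ctss, a lysosomal protease of antigen-presenting cells, stood at 112, 228 and 112 CPM at day 1 and 1568, 1557 and 1887 at day 3 (log2 change 3.47, SE 0.32, adjusted p = 1.54e-05). Cybb, the catalytic subunit of the phagocyte oxidase, stood at 21.3, 22.2 and 7.79 CPM at day 1 and 186, 162 and 183 at day 3 (log2 change 3.37, SE 0.31, adjusted p = 1.55e-05). No day 1 library reached a day 3 library for any of these 3 genes. Csf1r, the receptor for the macrophage growth factor CSF1, rose by a log2 change of 2.41 (SE 0.25, adjusted p = 2.59e-05), and Cx3cr1, the fractalkine receptor of monocytes and macrophages, rose 20.4-fold from 5.45, 7.81 and 1.37 CPM at day 1 to 117, 85.7 and 93.7 at day 3 (log2 change 4.35, SE 0.39, adjusted p = 1.30e-05). Slamf7, a receptor of leukocytes, was among the 15 largest rises at a log2 change of 3.76 (SE 0.39, adjusted p = 2.66e-05).

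Genes linked with lipid handling, uptake of dead cells and complement C1q in repair-stage macrophages rose with them. Of 27 such genes, 20 rose, none fell and 7 did not pass (median log2 change 1.89). Apoe, a lipid carrier, stood at 258, 436 and 333 CPM at day 1 and 6007, 5995 and 8025 at day 3 and rose 19.5-fold (log2 change 4.29, SE 0.33, adjusted p = 5.82e-06). Gpnmb, a lysosomal glycoprotein of lipid-laden macrophages, stood at 54.7, 80.2 and 105 CPM at day 1 and 1486, 1524 and 1497 at day 3 (log2 change 4.23, SE 0.29, adjusted p = 3.99e-06). Trem2, a lipid-sensing receptor, stood at 18.4, 42.9 and 19.7 CPM at day 1 and 306, 296 and 315 at day 3 (log2 change 3.50, SE 0.30, adjusted p = 1.26e-05). The day 3 libraries lay close together for Gpnmb and Trem2, and above every day 1 library for all 3. The C1q chains C1qa, C1qb and C1qc rose by log2 changes of 2.82, 2.82 and 2.06, and Spp1, osteopontin, by 3.29. Igf1, a growth factor for muscle cells that macrophages and other cells make, rose 2.73-fold from 31.1, 37.3 and 50.9 CPM at day 1 to 110.4, 108 and 107 at day 3 (log2 change 1.45, SE 0.21, adjusted p = 4.13e-04). Gdf3, a TGF-beta family ligand of repair macrophages, stood at 1.36, 4.29 and 1.15 CPM at day 1 and 15.1, 15.4 and 14.3 at day 3 (log2 change 2.73, SE 0.47, adjusted p = 0.00121).

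Lysosome genes followed the same course. Of 20, 17 rose, none fell and 3 did not pass (median log2 change 1.64). Atp6v0d2, a proton pump subunit of macrophages and osteoclasts, stood at 1.36, 2.02 and 1.604 CPM at day 1 and 35.5, 22.8 and 28.6 at day 3 (log2 change 4.11, SE 0.36, adjusted p = 1.30e-05). Atp6v0d2 passed the count rule through its day 3 libraries, so its separation was partly fixed by the rule. Psap, the saposin precursor, stood at 421, 454 and 388 CPM at day 1 and 1992, 2217 and 2196 at day 3 and rose 5.08-fold (log2 change 2.34, SE 0.24, adjusted p = 2.59e-05). Ctsb, a cathepsin, rose by a log2 change of 2.10 (SE 0.28, adjusted p = 1.95e-04). Of 14 tested genes of antigen presentation by MHC class II and of dendritic cells, 10 rose, none fell and 4 did not pass (median log2 change 1.63). Cd74, the invariant chain, stood at 94.2, 267 and 157 CPM at day 1 and 490.3, 494 and 611 at day 3 (log2 change 1.62, SE 0.31, adjusted p = 0.00277), and Ciita, the master regulator of the class, at 6.81, 9.58 and 2.98 CPM at day 1 and 23.1, 28.7 and 20.3 at day 3 (log2 change 1.90, SE 0.38, adjusted p = 0.00328). D1.DTR replicate 2 was the highest day 1 library for both, and it remained under every day 3 library. Cd209a, a lectin of monocyte-derived dendritic cells, rose by a log2 change of 1.90 (SE 0.38, adjusted p = 0.00369). Flt3, Clec9a, Zbtb46 and Batf3, which mark dendritic cells more strictly, were the 4 that did not pass, at log2 changes of 0.54, 0.87, −0.79 and −0.28.

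**Figure D2:**
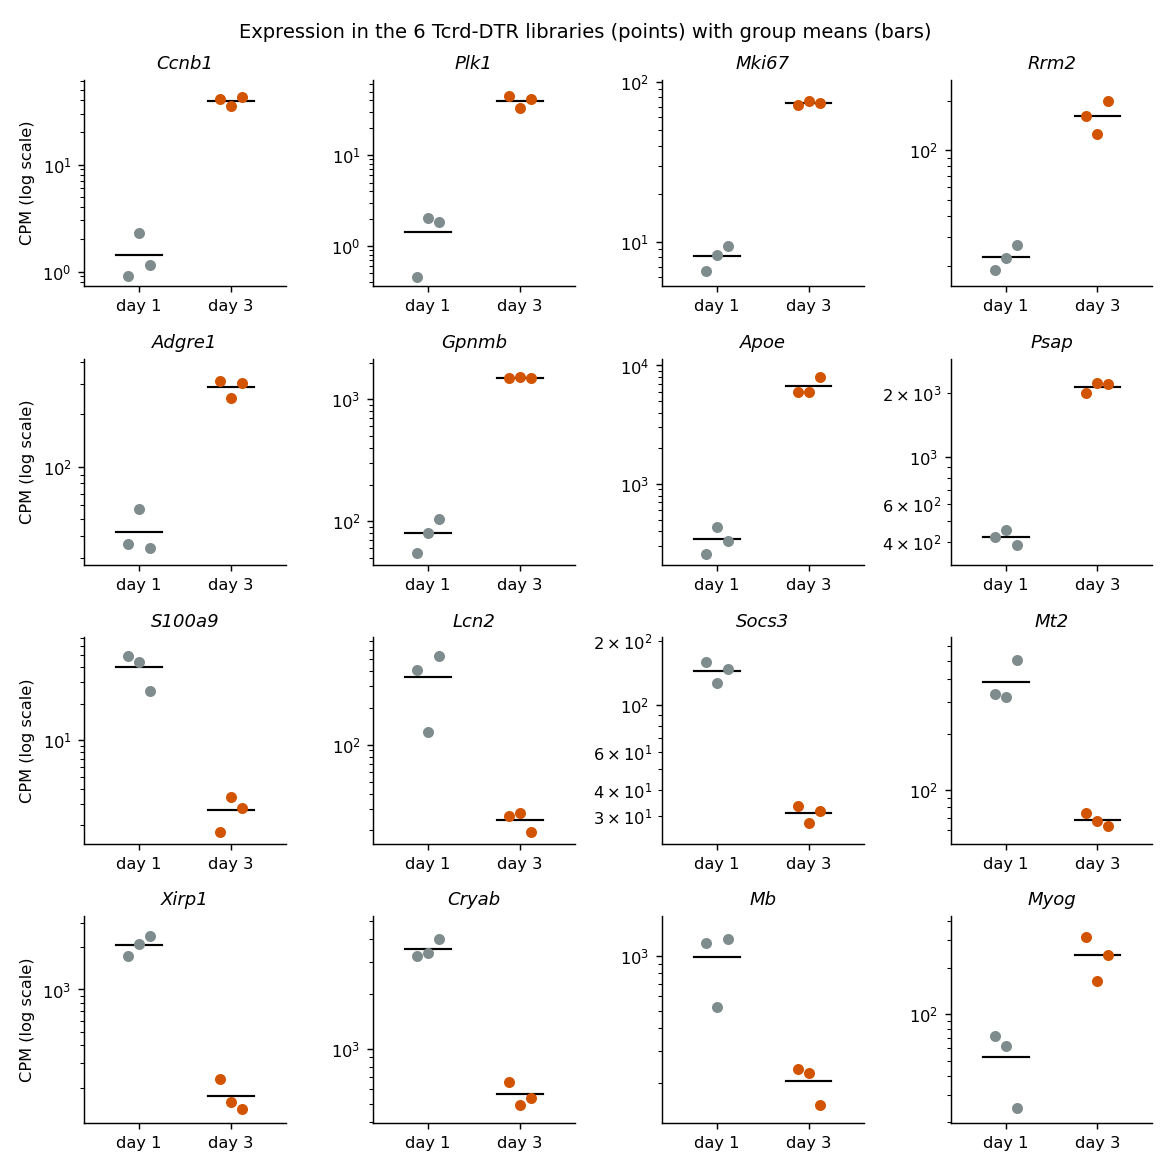
Expression of 16 genes in each of the 6 Tcrd-DTR libraries (points, grey for day 1 and orange for day 3, replicates 1 to 3 from left to right) in TMM-scaled CPM on log axes that differ between panels, with bars at the group means. In all 16 panels the 3 day 3 libraries lie on one side of the 3 day 1 libraries, above them for Ccnb1, Plk1, Mki67, Rrm2, Adgre1, Gpnmb, Apoe, Psap and Myog and below them for the other 7.

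Interferon-stimulated genes rose in part, with calls that turned on single libraries. Of 20, 8 rose, none fell and 12 did not pass (median log2 change 0.83), and 20 of 20 had a log2 change above 0. Ifit2, an antiviral effector, stood at 6.35, 10.8 and 6.42 CPM at day 1 and 54.5, 28.9 and 29.2 at day 3 and rose 4.77-fold (log2 change 2.25, SE 0.34, adjusted p = 4.63e-04). Rsad2, viperin, stood at 13.6, 33.02 and 14.9 CPM at day 1 and 59.2, 35.8 and 52.9 at day 3 (log2 change 1.27, SE 0.33, adjusted p = 0.0151), and its call was lost in the fits without D1.DTR replicate 1, D1.DTR replicate 3, D3.DTR replicate 1 or D3.DTR replicate 3 (adjusted p between 0.0509 and 0.0776). Isg15, a ubiquitin-like modifier, did not pass, with 5.67, 21.4 and 6.64 CPM at day 1 and 22.5, 12.1 and 14.04 at day 3 (log2 change 0.54, SE 0.46, adjusted p = 0.452). D1.DTR replicate 2 was the highest day 1 library for all 3 genes, and for Isg15 the days overlapped. The count of 8 was 17 without D1.DTR replicate 2, 1 without D1.DTR replicate 1, 2 without D1.DTR replicate 3, 1 without D3.DTR replicate 1 and 4 without either of the other 2 day 3 libraries. It was 13 with every gene tested and 5 with an offset for length and GC content. The interferon-stimulated response element GAAA, any 2 bases, GAAA (both strands, capitals below) was found in 11 of 16 windows of this list (68.8%), against 3.16% of members and 3.49% of all windows, and the Isg15 promoter is shown for its 3 matches, which share letters.
Isg15 (chr4:156200769-156201068, minus strand): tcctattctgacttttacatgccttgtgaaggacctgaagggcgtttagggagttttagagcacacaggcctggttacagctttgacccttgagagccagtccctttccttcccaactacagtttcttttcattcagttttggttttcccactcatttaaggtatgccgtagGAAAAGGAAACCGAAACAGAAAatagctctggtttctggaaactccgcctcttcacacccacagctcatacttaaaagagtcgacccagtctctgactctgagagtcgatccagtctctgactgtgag

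Neutrophil genes lay at the other end. Of 21 listed, 15 were members, of which 8 fell, 1 rose and 6 did not pass (median log2 change −1.97), and the summed level was 302, 373 and 236 CPM at day 1 and 124, 121 and 131 at day 3. S100a9, a calcium-binding protein abundant in neutrophils, stood at 49.5, 44.4 and 25.7 CPM at day 1 and 1.75, 3.43 and 2.78 at day 3 and fell 14.9-fold (log2 change −3.89, SE 0.36, adjusted p = 1.55e-05). S100a8, its partner, stood at 51.97, 56.7 and 34.1 CPM at day 1 and 7.76, 6.67 and 8.89 at day 3 (log2 change −2.60, SE 0.27, adjusted p = 3.22e-05). Cxcr2, the receptor through which neutrophils follow chemokines, stood at 20.2, 20.2 and 8.71 CPM at day 1 and 1.55, 1.41 and 0 at day 3 (log2 change −4.13, SE 0.68, adjusted p = 9.70e-04). The groups did not overlap for these 3 genes, and Cxcr2 passed the count rule through its day 1 libraries. Slpi, a protease inhibitor, fell by a log2 change of −2.41 (SE 0.31, adjusted p = 1.42e-04). Mmp8, known as neutrophil collagenase, was the 1 that rose, from 5.45, 3.78 and 2.06 CPM at day 1 to 19.8, 15.8 and 12.6 at day 3 (log2 change 2.08, SE 0.40, adjusted p = 0.00264).

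Cytokines and feedback genes of acute inflammation fell in part. Of 27 listed, 20 were members, of which 7 fell, none rose and 13 did not pass (median log2 change −0.70). Without D1.DTR replicate 2 the median was −0.33 and 1 rose. Il1b, interleukin 1 beta, stood at 26.6, 35.04 and 7.33 CPM at day 1 and 1.16, 1.62 and 1.81 at day 3 and fell 14.6-fold (log2 change −3.87, SE 0.54, adjusted p = 2.95e-04). Cxcl5, a neutrophil chemokine, stood at 22.5, 42.3 and 16.04 CPM at day 1 and 2.33, 2.22 and 1.11 at day 3 (log2 change −3.85, SE 0.45, adjusted p = 7.17e-05), and Lcn2, a siderophore-binding protein known to respond to interleukin 17, at 408, 128 and 532 CPM at day 1 and 26.2, 27.9 and 19.3 at day 3 (log2 change −3.87, SE 0.42, adjusted p = 4.04e-05). D1.DTR replicate 2 held the lowest day 1 level of Lcn2 and the highest of Cxcl5, and for both genes it lay above every day 3 library. Socs3, the feedback inhibitor of interleukin 6 family signals, fell 4.66-fold from 159, 128 and 148 CPM at day 1 to 33.6, 27.7 and 31.8 at day 3 (log2 change −2.22, SE 0.20, adjusted p = 1.30e-05). Il6 itself had 0.908, 3.02 and 2.29 CPM at day 1 and 2.13, 0.808 and 0.834 at day 3, overlapped between days and did not pass (log2 change −0.72, SE 0.73, adjusted p = 0.538). Cxcl2 and Cxcl3, related neutrophil chemokines, fell by log2 changes of −4.09 and −4.16, with 1 D3.DTR library without a count of Cxcl3. The ligands Il17a and Il17f had too few counts to be members, and of the 5 tested genes of the interleukin 17 pathway none passed in either direction, while 1 rose under library totals alone, with every gene tested or with the offset for length and GC content, and 1 rose and 1 fell without D1.DTR replicate 2.

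Other myeloid lists held calls in both directions, beside 10.2% of all members that rose and 8.53% that fell. Among 15 genes of inflammatory monocytes, 3 fell, 1 rose and 11 did not pass, with a median of −0.20 that was 0.01 under library totals alone and 0.30 without D1.DTR replicate 2. Arg1, arginase, stood at 39.7, 86.5 and 51.3 CPM at day 1 and 8.35, 3.64 and 6.95 at day 3 and fell 9.27-fold (log2 change −3.21, SE 0.35, adjusted p = 4.16e-05). F13a1, a transglutaminase of monocytes and macrophages, rose from 90.8, 161 and 144 CPM at day 1 to 324, 326 and 486 at day 3 (log2 change 1.53, SE 0.26, adjusted p = 0.00115). Ly6c2 and Ccr2, the defining genes of these monocytes, did not pass, at log2 changes of −0.20 and 0.61. The number that rose was 4 without D1.DTR replicate 2 and 2 with every gene tested. Of 15 tested monocyte and lymphocyte chemokines, 5 fell and 2 rose (median log2 change −0.41, and 0.04 without D1.DTR replicate 2). Cxcl16, a membrane-bound chemokine of macrophages, stood at 10.2, 18.7 and 7.33 CPM at day 1 and 81.3, 72.9 and 95.1 at day 3 and rose 6.92-fold (log2 change 2.79, SE 0.30, adjusted p = 3.44e-05), and Ppbp, a platelet and neutrophil chemokine, stood at 12.5, 30.8 and 10.3 CPM at day 1 and 1.94, 0.404 and 2.92 at day 3 and fell (log2 change −3.26, SE 0.57, adjusted p = 0.00148). With single libraries left out, the 5 became 2 without D3.DTR replicate 1 or 3 and 3 without D3.DTR replicate 2 or D1.DTR replicate 2, and the 2 became 1 without any library other than D1.DTR replicate 2.

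Few lymphocyte genes had enough counts to be members. Of 11 alpha-beta T cell genes only Cd28 was a member, of 11 B cell and natural killer genes only Cd79b, and of 6 regulatory T cell genes only Ikzf2 (log2 change −0.78, not passed) and Il1rl1. Cd28, a costimulatory receptor of T cells, rose from 1.82, 1.26 and 2.75 CPM at day 1 to 6.599, 8.28 and 7.23 at day 3 (log2 change 1.90, SE 0.49, adjusted p = 0.0151), and its call was lost in the 12-library fit and the fits without D3.DTR replicate 2 (adjusted p between 0.0603 and 0.0769). Cd79b, a subunit of the B cell receptor, rose from 1.13, 2.27 and 0.916 CPM at day 1 to 6.99, 6.87 and 3.89 at day 3 (log2 change 2.02, SE 0.58, adjusted p = 0.0261), and its call was lost in the fits without D1.DTR replicate 1, D1.DTR replicate 3, D3.DTR replicate 1 or D3.DTR replicate 2 (adjusted p between 0.0814 and 0.0981). Both genes were low, with no overlap between days. Cd79b passed the count rule through its day 3 libraries, so its separation was partly fixed by the rule. Il1rl1, the receptor for interleukin 33, is also made by other cells and fell from 47.2, 156 and 55.7 CPM at day 1 to 14.2, 29.3 and 33.5 at day 3 (log2 change −1.74, SE 0.42, adjusted p = 0.0103), a call lost in the 23-library fit (adjusted p = 0.0571).

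**Figure D3:**
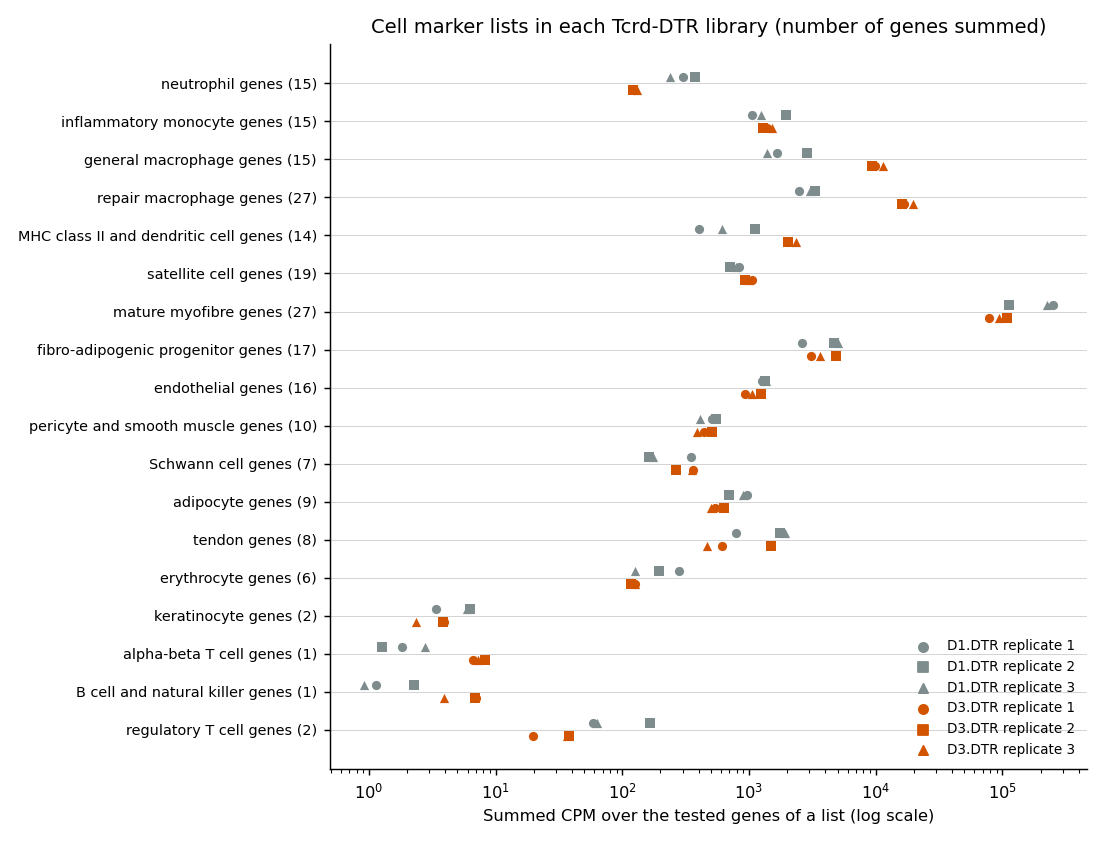
Summed TMM-scaled CPM of each cell marker list (horizontal log axis) in each Tcrd-DTR library, grey for day 1 and orange for day 3, with the marker shape giving the replicate. Day 3 libraries lie to the right of all day 1 libraries for both macrophage lists and to the left of them for neutrophil genes and mature myofibre genes; for the latter D1.DTR replicate 2 (squares) lies next to the day 3 libraries.

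Stress genes of the first day fell in part. Of 19 tested immediate early genes, which are switched on within minutes of a stimulus, 12 fell, 1 rose and 6 did not pass (median log2 change −1.02), and 7 fell under library totals alone. Egr1, a zinc finger factor, stood at 122, 245 and 180.1 CPM at day 1 and 47.6, 41.2 and 37.5 at day 3 and fell 4.33-fold (log2 change −2.11, SE 0.25, adjusted p = 8.13e-05). Ier3 stood at 66.5, 99.8 and 137 CPM at day 1 and 17.9, 7.07 and 10.3 at day 3 (log2 change −3.11, SE 0.34, adjusted p = 4.02e-05), and Dusp5, a phosphatase of the kinase ERK, at 32.7, 68.6 and 54.99 CPM at day 1 and 7.76, 7.68 and 9.03 at day 3 (log2 change −2.66, SE 0.30, adjusted p = 4.47e-05). Jun was the 1 that rose, from 86.9, 59.99 and 84.8 CPM at day 1 to 123, 149 and 152 at day 3 (log2 change 0.87, SE 0.21, adjusted p = 0.00943). No gene of these 4 overlapped between days. Dusp2, a related phosphatase outside the list, was among the 15 largest falls at a log2 change of −3.86 (SE 0.45, adjusted p = 6.71e-05).

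Of 18 metallothionein and oxidative stress genes, 8 fell, 3 rose and 7 did not pass (median log2 change −1.01). Osgin1, a target of the oxidative stress factor NRF2, stood at 139.6, 322 and 256 CPM at day 1 and 16.1, 12.1 and 14.9 at day 3 and fell 16.6-fold (log2 change −4.05, SE 0.31, adjusted p = 5.42e-06). Mt2, a metal-binding protein, stood at 330.0, 319 and 503 CPM at day 1 and 74.9, 67.1 and 63.2 at day 3 (log2 change −2.49, SE 0.23, adjusted p = 1.60e-05), and Srxn1, sulfiredoxin, at 123, 109 and 180.3 CPM at day 1 and 25.4, 24.4 and 19.9 at day 3 (log2 change −2.57, SE 0.24, adjusted p = 1.51e-05). The 3 that rose are known to be high in macrophages too, and which cells made them here was not tested. They were Ftl1, the ferritin light chain, at a log2 change of 1.78 (SE 0.29, adjusted p = 8.47e-04), Blvrb, a biliverdin reductase, at 1.30 (SE 0.22, adjusted p = 0.0011), and G6pdx, the entry enzyme of the pentose phosphate pathway, at 1.17 (SE 0.23, adjusted p = 0.00294).

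Of 14 tested heat shock genes, 5 fell, none rose and 9 did not pass (median log2 change −0.44). Cryab, a small heat shock protein of muscle, stood at 3208, 3349 and 3994 CPM at day 1 and 659.7, 492 and 541 at day 3 and fell 6.23-fold (log2 change −2.64, SE 0.27, adjusted p = 2.47e-05), and Hspb8 stood at 5625, 4136 and 6823 CPM at day 1 and 1165, 1046 and 1011 at day 3 (log2 change −2.36, SE 0.29, adjusted p = 1.04e-04). Both were below every day 1 library in all day 3 libraries. Of 15 genes of the integrated stress response, 7 fell, 1 rose and 7 did not pass, with a median of −0.20 that was 0.10 under library totals alone. Ppp1r15a, the feedback phosphatase subunit GADD34, stood at 312, 363 and 444 CPM at day 1 and 87.9, 70.9 and 73.9 at day 3 (log2 change −2.26, SE 0.22, adjusted p = 1.85e-05), and Trib3 at 11.6, 21.2 and 19.9 CPM at day 1 and 1.16, 2.63 and 1.95 at day 3 (log2 change −3.18, SE 0.42, adjusted p = 1.89e-04). Phgdh, the first enzyme of serine synthesis, was the 1 that rose, from 10.4, 18.7 and 11.9 CPM at day 1 to 46.4, 60.2 and 66.4 at day 3 (log2 change 2.08, SE 0.27, adjusted p = 1.45e-04). The heat shock and integrated stress lists each counted 2 genes that rose without D1.DTR replicate 2.

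Genes for protein folding in the endoplasmic reticulum fell in part. Of 16, 7 fell, none rose and 9 did not pass (median log2 change −0.53). Dnajb9, a co-chaperone of the unfolded protein response, stood at 251, 231 and 344 CPM at day 1 and 60.8, 33.3 and 38.5 at day 3 and fell 6.23-fold (log2 change −2.64, SE 0.26, adjusted p = 2.20e-05). Hspa5, the chaperone BiP, stood at 1889.9, 2271 and 2142 CPM at day 1 and 871, 701 and 814 at day 3 (log2 change −1.40, SE 0.24, adjusted p = 0.00125), and Creld2 at 138, 175 and 164 CPM at day 1 and 64.2, 67.9 and 60.2 at day 3 (log2 change −1.31, SE 0.19, adjusted p = 3.59e-04). The 3 genes shared the order of groups without overlap. The Creld2 promoter is shown for the endoplasmic reticulum stress element CCAAT, any 9 bases, CCACG (both strands, capitals), which contains a CCAAT box and was found in 7 of 14 windows of this list (50%), against 0.143% of members and 0.130% of all windows.
Creld2 (chr15:88819396-88819695, plus strand): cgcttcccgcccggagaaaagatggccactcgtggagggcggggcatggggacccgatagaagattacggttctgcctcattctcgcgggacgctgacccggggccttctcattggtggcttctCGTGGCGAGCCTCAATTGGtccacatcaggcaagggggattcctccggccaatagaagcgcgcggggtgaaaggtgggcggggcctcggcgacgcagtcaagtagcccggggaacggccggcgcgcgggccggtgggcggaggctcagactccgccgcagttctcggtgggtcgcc

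Genes of the mature fibre fell in part. Of 27 genes of the adult fast sarcomere, calcium handling and energy supply, 15 fell, none rose and 12 did not pass (median log2 change −1.06), and the summed level was 250969.9, 112904 and 226757 CPM at day 1 and 78059, 109506 and 93308 at day 3. Mb, myoglobin, stood at 1183, 527 and 1237 CPM at day 1 and 239.9, 228 and 151 at day 3 and fell 4.76-fold (log2 change −2.25, SE 0.32, adjusted p = 3.59e-04). Pvalb, a calcium buffer of fast fibres, stood at 4807, 2934 and 4221 CPM at day 1 and 984, 1429 and 777 at day 3 (log2 change −1.91, SE 0.31, adjusted p = 9.07e-04), and Cacna1s, the voltage sensor of the fibre, at 325, 139.9 and 296 CPM at day 1 and 74.3, 120.4 and 84.2 at day 3 (log2 change −1.45, SE 0.30, adjusted p = 0.00412). D1.DTR replicate 2 was the lowest day 1 library for these 3 genes, above every day 3 library. Without D1.DTR replicate 2 the count of 15 was 25. It was 9 without D1.DTR replicate 1, 6 without D1.DTR replicate 3, 4 without D3.DTR replicate 1 or 3 and 8 without D3.DTR replicate 2. With the replicate block it was 8.

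Membrane repair and mechanical stress genes of the fibre had a lower median. Of 15, 9 fell, 2 rose and 4 did not pass (median log2 change −1.62). Xirp1, an actin-binding protein of damaged fibres, stood at 1734, 2114 and 2402 CPM at day 1 and 229, 157 and 140.1 at day 3 and fell 11.9-fold (log2 change −3.57, SE 0.29, adjusted p = 8.07e-06). Ankrd1, a stretch-responsive sarcomere protein, stood at 1259, 900.1 and 1571 CPM at day 1 and 168, 147 and 167 at day 3 (log2 change −2.95, SE 0.26, adjusted p = 1.30e-05), and Flnc, the muscle filamin, at 4350.1, 3548 and 4417 CPM at day 1 and 564, 498 and 452 at day 3 (log2 change −3.02, SE 0.27, adjusted p = 1.30e-05). Each of the 3 lay in a separate range on the 2 days. Anxa1 and Anxa5, annexins that many cell types including macrophages make, were the 2 that rose, both by a log2 change of 1.39 (adjusted p = 0.00261 and 0.0019). Which cells made these annexins here was not tested. Of 12 genes of atrophy and glucocorticoid response 4 fell and none rose, with a median of −0.20 that was 0.10 under library totals alone and 0.04 without D1.DTR replicate 3. Trim63 and Fbxo32, the ubiquitin ligases MuRF1 and atrogin-1, fell by log2 changes of −2.08 (SE 0.32, adjusted p = 6.33e-04) and −1.85 (SE 0.36, adjusted p = 0.0031).

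Further genes of the 15 largest falls included several known from stressed muscle, heart or vessels. Nppb, the natriuretic peptide BNP, stood at 13.2, 49.4 and 33.2 CPM at day 1 and 0.97, 2.42 and 0.417 at day 3 and fell 26.1-fold (log2 change −4.71, SE 0.59, adjusted p = 1.14e-04). Thbd, thrombomodulin, stood at 412, 515 and 984 CPM at day 1 and 47.2, 50.5 and 33.2 at day 3 (log2 change −3.87, SE 0.34, adjusted p = 1.30e-05). Rrad, a small GTPase that limits calcium channels, stood at 1008, 1243 and 1268 CPM at day 1 and 167, 91.7 and 80.7 at day 3 (log2 change −3.37, SE 0.31, adjusted p = 1.35e-05). The rule that named these 3 required no overlap between days. Rgcc, a regulator of cell cycle and vessel growth, fell by a log2 change of −3.39 and Trpm1 by −3.32. The switch kinase Pdk4, which turns muscle from glucose to fat use, stood at 411, 364 and 1325 CPM at day 1 and 110.2, 53.7 and 27.1 at day 3 and fell (log2 change −3.46, SE 0.56, adjusted p = 9.82e-04), a call lost when every gene with a count was tested (adjusted p = 0.202).

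Satellite cell and myoblast genes gave the regenerating side of the muscle lineage. Of 19 tested satellite cell genes, 5 rose, none fell and 14 did not pass (median log2 change 0.35), and the 5 were 3 without D1.DTR replicate 3 or D3.DTR replicate 2. Pax7, the factor that defines these cells, stood at 2.95, 1.01 and 1.15 CPM at day 1 and 3.49, 9.697 and 6.67 at day 3 and rose 3.82-fold (log2 change 1.93, SE 0.60, adjusted p = 0.0366). Its groups did not overlap, and its call was lost in the fits without D1.DTR replicate 2, D1.DTR replicate 3, D3.DTR replicate 2 or D3.DTR replicate 3 (adjusted p between 0.0517 and 0.165). Vcam1, an adhesion receptor also made by vessels, stood at 14.3, 14.1 and 14.2 CPM at day 1 and 61.1, 39.8 and 55.2 at day 3 (log2 change 1.87, SE 0.24, adjusted p = 1.41e-04), and Fgfr4, a growth factor receptor of myoblasts, at 1.36, 2.27 and 1.37 CPM at day 1 and 8.15, 8.89 and 9.59 at day 3 (log2 change 2.4, SE 0.46, adjusted p = 0.00269). Both lay in separate ranges on the 2 days, and Fgfr4 passed the count rule through its day 3 libraries. Myod1, the factor of activated satellite cells, had 118, 106 and 133 CPM at day 1 and 159, 149 and 189 at day 3; the groups did not overlap and the test was not passed (log2 change 0.48, SE 0.19, adjusted p = 0.103).

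Of 26 genes of differentiation, fusion and the embryonic sarcomere, 9 rose, 5 fell and 12 did not pass (median log2 change 0.13). Myog, the factor that commits myoblasts to differentiate, stood at 72.2, 62.5 and 24.7 CPM at day 1 and 315, 164 and 241 at day 3 and rose 4.51-fold (log2 change 2.17, SE 0.35, adjusted p = 7.48e-04). Mymk and Mymx, the fusion proteins myomaker and myomixer, stood at 4.09, 1.51 and 0.687 CPM at day 1 and 32.4, 32.9 and 22.5 at day 3 (log2 change 3.78, SE 0.46, adjusted p = 1.01e-04) and at 0.227, 0.252 and 0.458 CPM at day 1 and 8.15, 5.45 and 5.56 at day 3 (log2 change 4.24, SE 0.68, adjusted p = 7.58e-04). Chrng, the fetal subunit of the acetylcholine receptor, stood at 3.18, 4.79 and 1.604 CPM at day 1 and 18.1, 14.5 and 24.3 at day 3 (log2 change 2.58, SE 0.41, adjusted p = 7.42e-04). None of these 4 overlapped between days, with D1.DTR replicate 3 the lowest day 1 library for Myog and Chrng. Mymk and Mymx passed the count rule through their day 3 libraries. Myh3, embryonic myosin, stood at 11.6, 4.03 and 0.458 CPM at day 1 and 20.8, 34.7 and 11.8 at day 3 (log2 change 2.05, SE 0.64, adjusted p = 0.0399). Its highest day 1 and lowest day 3 libraries nearly met, and its call was lost in DESeq2's test and the fits without D1.DTR replicate 2, D1.DTR replicate 3, D3.DTR replicate 1, D3.DTR replicate 2 or D3.DTR replicate 3 (adjusted p between 0.0587 and 0.18). The adult factor Myf6 fell from 283, 111 and 418 CPM at day 1 to 68.1, 56.8 and 91.4 at day 3 (log2 change −1.91, SE 0.37, adjusted p = 0.00288). Of the 5 that fell, Jsrp1, Klhl41, Des and Chrnd lost their call in some setting; 1 fell under library totals alone, 3 with DESeq2's size factors, 3 without D1.DTR replicate 1, 1 without D3.DTR replicate 1 or 2 and 2 without D3.DTR replicate 3.

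Matrix genes rose in part. Of 30 collagens, matricellular and cross-linking genes, 11 rose, none fell and 19 did not pass (median log2 change 0.58). Postn, periostin, stood at 33.4, 86.5 and 57.97 CPM at day 1 and 204, 221 and 122 at day 3 and rose 3.08-fold (log2 change 1.62, SE 0.31, adjusted p = 0.00286). Col5a2, a fibril-nucleating collagen chain, stood at 85.3, 106 and 125 CPM at day 1 and 309, 294 and 206 at day 3 (log2 change 1.36, SE 0.23, adjusted p = 0.00106), and Fbn1, fibrillin of elastic microfibrils, at 136, 214 and 168 CPM at day 1 and 359, 377 and 367 at day 3 (log2 change 1.09, SE 0.22, adjusted p = 0.00317). Col1a1, the main chain of type I collagen, stood at 457, 746 and 925 CPM at day 1 and 1609.6, 1741 and 1261 at day 3 (log2 change 1.12, SE 0.28, adjusted p = 0.0147). The groups did not overlap for these 4 genes, and the call of Col1a1 was lost without D3.DTR replicate 1 or 2 (adjusted p between 0.0575 and 0.073). The count of 11 was 16 without D1.DTR replicate 2, 7 without D1.DTR replicate 1, 6 without D3.DTR replicate 1 and 5 without D3.DTR replicate 2.

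Of 19 tested proteases of the matrix and their inhibitors, 5 rose and 4 fell. Mmp12, the macrophage elastase, stood at 8.85, 22.9 and 2.75 CPM at day 1 and 77.1, 57.98 and 67.3 at day 3 and rose 5.91-fold (log2 change 2.56, SE 0.47, adjusted p = 0.00193), a call lost in the 23-library fit (adjusted p = 0.0596). Timp2, a metalloproteinase inhibitor, stood at 49.9, 84.7 and 84.8 CPM at day 1 and 156, 248 and 161 at day 3 (log2 change 1.36, SE 0.26, adjusted p = 0.00233), and Adamts1, a protease of proteoglycans, at 119.6, 141 and 172 CPM at day 1 and 36.5, 42.6 and 37.1 at day 3 with a fall of 3.72-fold (log2 change −1.90, SE 0.20, adjusted p = 3.60e-05). The 3 genes had no overlap between days. The 5 were 3 without D1.DTR replicate 3 or D3.DTR replicate 2, and the 4 were 2 under library totals alone and 1 without D3.DTR replicate 3. The median of this list was 0.11 and fell below 0 without D1.DTR replicate 1 (−0.29), D1.DTR replicate 2 (−0.10), D3.DTR replicate 1 (−0.00037) or D3.DTR replicate 2 (−0.06).

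Calls in the mesenchymal and vessel lists are set beside all members, of which 10.2% rose and 8.53% fell. Of 17 genes of fibro-adipogenic progenitors, the mesenchymal cells that make most muscle matrix, 1 rose and 16 did not pass, with a median of 0.24 that was −0.0046 without D3.DTR replicate 2. The summed level of this list was 2644 to 5081 CPM at day 1 and 3093 to 4890.3 at day 3. The 1 that rose, Mfap5, a microfibril protein, lost its call in the 23-library fit, an offset for length and GC content and the fits without D1.DTR replicate 1, D1.DTR replicate 3, D3.DTR replicate 1, D3.DTR replicate 2 or D3.DTR replicate 3 (adjusted p between 0.0545 and 0.134). Without D1.DTR replicate 2, 6 genes of this list rose, and 4 with every gene tested. Of 17 tested TGF-beta family genes 4 rose and none fell; the 4 were 1 without D1.DTR replicate 1, D3.DTR replicate 1 or D3.DTR replicate 2 and 0 without D3.DTR replicate 3. Of 16 tested growth signals 2 rose (Hgf and Igf1) and 2 fell (Igf1r and Igfbp3). The 2 that rose were 1 without D1.DTR replicate 1, D1.DTR replicate 3 or D3.DTR replicate 1 and 4 without D1.DTR replicate 2, and the 2 that fell were 1 without D1.DTR replicate 3, D3.DTR replicate 1 or D3.DTR replicate 2. Hgf, the activating factor of satellite cells, stood at 2.95, 3.78 and 2.06 CPM at day 1 and 12.4, 7.68 and 6.95 at day 3 (log2 change 1.61, SE 0.45, adjusted p = 0.0225) and lost its call in the 23-library fit and the fits without D1.DTR replicate 1, D1.DTR replicate 3 or D3.DTR replicate 1 (adjusted p between 0.0561 and 0.133). Igf1r, the receptor of the growth factor Igf1, stood at 49.3, 43.1 and 49.7 CPM at day 1 and 23.3, 24.2 and 24.04 at day 3 and fell 1.98-fold (log2 change −0.99, SE 0.21, adjusted p = 0.00453), opposite to its ligand.

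Of 16 endothelial genes 2 rose and 2 fell. Aplnr, the apelin receptor of growing vessels, stood at 52.4, 42.3 and 41.01 CPM at day 1 and 64.6, 115 and 109 at day 3 (log2 change 1.08, SE 0.24, adjusted p = 0.00605), and Flt1, a receptor of vascular growth factor, at 99.4, 63.02 and 77.9 CPM at day 1 and 31.4, 45.1 and 35.99 at day 3 (log2 change −1.10, SE 0.23, adjusted p = 0.00435). Neither overlapped between days. Leaving out D1.DTR replicate 3, D3.DTR replicate 2 or D3.DTR replicate 3 left 1 that rose, and leaving out D3.DTR replicate 1 or 3 left 1 that fell, against 4 that fell in the 12-library fit. Of 10 pericyte genes 1 fell, of 7 tested Schwann cell genes 2 rose and of 9 adipocyte genes 2 fell, and the lists of tendon (8 tested), red cells (6 tested) and skin epithelium (2 tested) held no gene that passed. The single pericyte call was lost without any library other than D1.DTR replicate 2, 1 adipocyte gene was left without any 1 library, and the 2 Schwann cell calls were 0 without D1.DTR replicate 3, D3.DTR replicate 2 or D3.DTR replicate 3. The summed skin epithelium level was 3.404 to 6.302 CPM at day 1 and 2.36 to 3.88 at day 3.

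Energy genes fell in part, with calls near the threshold. Of 27 nuclear genes of the respiratory chain, 17 fell, none rose and 10 did not pass (median log2 change −0.78). Cox7a1, a muscle subunit of cytochrome oxidase, stood at 259, 145 and 239 CPM at day 1 and 53.6, 63.8 and 77.7 at day 3 and fell 3.297-fold (log2 change −1.72, SE 0.25, adjusted p = 3.33e-04), and Cox6a2, another muscle subunit, stood at 1184, 564 and 842 CPM at day 1 and 322, 362 and 402 at day 3 (log2 change −1.25, SE 0.27, adjusted p = 0.00586). All day 3 libraries were below the lowest day 1 library, D1.DTR replicate 2, in both genes. The count of 17 was 3 under library totals alone, 9 with every gene tested, 3 without D1.DTR replicate 1, 3 without D1.DTR replicate 3, and 2, 2 and 3 without D3.DTR replicates 1, 2 and 3. It was 22 with DESeq2, 23 in the 23-library fit and 25 without D1.DTR replicate 2. Of 15 genes of the citric acid cycle 7 fell and none rose (median log2 change −0.80), a count that was 3 under library totals alone, 11 with DESeq2, 12 in the 12-library and 23-library fits, 14 without D1.DTR replicate 2 and 0 to 3 without any other single library. Of 11 tested genes of the mitochondrial genome 6 fell and none rose (median log2 change −1.22), and 2, 2 and 1 without D1.DTR replicate 3, D3.DTR replicate 2 and D3.DTR replicate 3. With the replicate block the falls were 5 in the respiratory chain, 3 in the citric acid cycle and 3 in the mitochondrial genome. Counts from all genes of the mitochondrial genome made up 3.97%, 3.25% and 4.49% of the day 1 libraries and 2.47%, 2.27% and 2.12% of the day 3 libraries.

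Genes of glucose use fell in part. Of 23 genes of glycolysis and the hypoxia response, 10 fell, 2 rose (10.2% of all members rose) and 11 did not pass (median log2 change −0.48). Hk2, the insulin-sensitive hexokinase of muscle, stood at 780.1, 720.2 and 932 CPM at day 1 and 205, 189 and 152 at day 3 and fell 4.46-fold (log2 change −2.16, SE 0.23, adjusted p = 3.38e-05). Slc2a1, the glucose transporter GLUT1, stood at 53.3, 38.1 and 53.6 CPM at day 1 and 15.7, 11.1 and 13.9 at day 3 (log2 change −1.83, SE 0.25, adjusted p = 2.19e-04). Pgam1 and Eno1, the isoforms of phosphoglycerate mutase and enolase found outside muscle fibres, were the 2 that rose, from 12.7, 19.9 and 11 CPM at day 1 to 37.8, 34.1 and 43.9 at day 3 (log2 change 1.41, SE 0.27, adjusted p = 0.00262) and from 157, 229 and 137 CPM at day 1 to 362, 336 and 485 at day 3 (log2 change 1.18, SE 0.24, adjusted p = 0.00445). The 4 genes did not overlap between days, and which cells made them was not tested. The count of 10 was 3 under library totals alone, 4 without D1.DTR replicate 1, 3 without D1.DTR replicate 3 and 3, 4 and 3 without D3.DTR replicates 1, 2 and 3. With the replicate block it was 4. Of 16 genes of fatty acid oxidation 4 fell and none rose, and 10 fell without D1.DTR replicate 2 and 7 in the 23-library fit, against 2 under library totals alone, with every gene tested, or without D1.DTR replicate 1, D1.DTR replicate 3, D3.DTR replicate 2 or D3.DTR replicate 3.

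Genes of protein synthesis and turnover had calls in both directions, beside 10.2% of all members that rose and 8.53% that fell. Of 25 ribosomal protein genes 1 rose (median log2 change 0.20), and 8 rose without D1.DTR replicate 2 against 0 without any other single library. Of 18 ribosome assembly genes 4 fell, and 0 or 1 did without D1.DTR replicate 3, without any 1 day 3 library, under library totals alone or with every gene tested. Of 28 proteasome genes 2 rose and 1 fell, with a median of −0.27 that was 0.06 under library totals alone. Psmb9, a subunit of the immunoproteasome, stood at 9.99, 17.4 and 6.42 CPM at day 1 and 43.7, 38.8 and 48.9 at day 3 and rose 3.91-fold (log2 change 1.97, SE 0.32, adjusted p = 8.25e-04). Psmd11, a cap subunit, stood at 513, 299 and 483 CPM at day 1 and 204, 182 and 221 at day 3 and fell (log2 change −1.09, SE 0.24, adjusted p = 0.00567). Neither overlapped between days, 9 proteasome genes fell without D1.DTR replicate 2, and 1 rose without D1.DTR replicate 1, D1.DTR replicate 3 or D3.DTR replicate 3. Of 15 tested genes of cholesterol synthesis and uptake 2 fell; 1 was left without any single library other than D1.DTR replicate 2.

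The step was set beside the same step in wild-type muscle in 1 fit of 12 libraries, with the same 13785 genes. In that fit 2948 genes changed in Tcrd-DTR muscle (11.5% rose and 9.89% fell) and 3893 in wild-type muscle (14.5% rose and 13.7% fell). The steps share no library, and 2271 calls were common to both: 77.0% of the Tcrd-DTR and 58.3% of the wild-type calls, and 2271 of these 2271 had the same direction. Across the 13785 genes (no independent replicates of each other), the changes in both steps had a Pearson r of 0.767 and a Spearman rho of 0.734. Mitosis genes had a median log2 change of 3.22 in Tcrd-DTR and 3.19 in wild-type muscle, general macrophage genes 1.94 and 1.84, and fibre stress genes −1.62 and −1.71.

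The test of the difference itself, the Tcrd-DTR step minus the wild-type step, called 0 of 13785 genes (0%) in edgeR, with a smallest adjusted p of 0.601, and 706 genes (5.12%) had an unadjusted p under 0.05, 357 of them higher in Tcrd-DTR. DESeq2's Wald test called 6 and had 786 at an unadjusted p under 0.05, and edgeR without a filter on low counts called 48. The median standard error of a difference was 0.42 on the log2 scale. In simulated counts the edgeR test of the difference recovered 3 of 100 genes changed 2-fold and 52 of 100 changed 4-fold. The 0 calls therefore do not show that the steps were equal. The 6 genes called by DESeq2 were Cd209f, Myoc, Tbx1, Timm29, Rnf187 and Cd209g, all with a step higher in Tcrd-DTR muscle. Cd209f, a lectin of resident macrophages, stood at 32.8, 30.5 and 84.5 CPM at day 1 and 2.102, 1.88 and 1.31 at day 3 in wild-type muscle, and at 8.07, 26.1 and 33.2 and 6.13, 11.6 and 11.2 in Tcrd-DTR muscle, a log2 difference of 3.53 (SE 0.74, 95% interval 2.07 to 4.99, adjusted p = 0.601). Myoc, myocilin, a secreted protein of mesenchymal cells, stood at 199, 126 and 156 and 64.1, 32.8 and 46.5 in wild-type and 77.1, 93.6 and 145 and 126, 248 and 101 in Tcrd-DTR muscle, a log2 difference of 2.33 (SE 0.48, 95% interval 1.39 to 3.26, adjusted p = 0.601). For both genes the wild-type days were far apart and the Tcrd-DTR days overlapped. Tbx1, a transcription factor of muscle, had a log2 difference of 2.58 (SE 0.53, 95% interval 1.54 to 3.62, adjusted p = 0.601), Timm29, a mitochondrial import subunit, 1.69 (SE 0.35, 95% interval 1.01 to 2.38, adjusted p = 0.601), and Rnf187, a ubiquitin ligase, 1.48 (SE 0.32, 95% interval 0.86 to 2.10, adjusted p = 0.601).

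**Figure D4:**
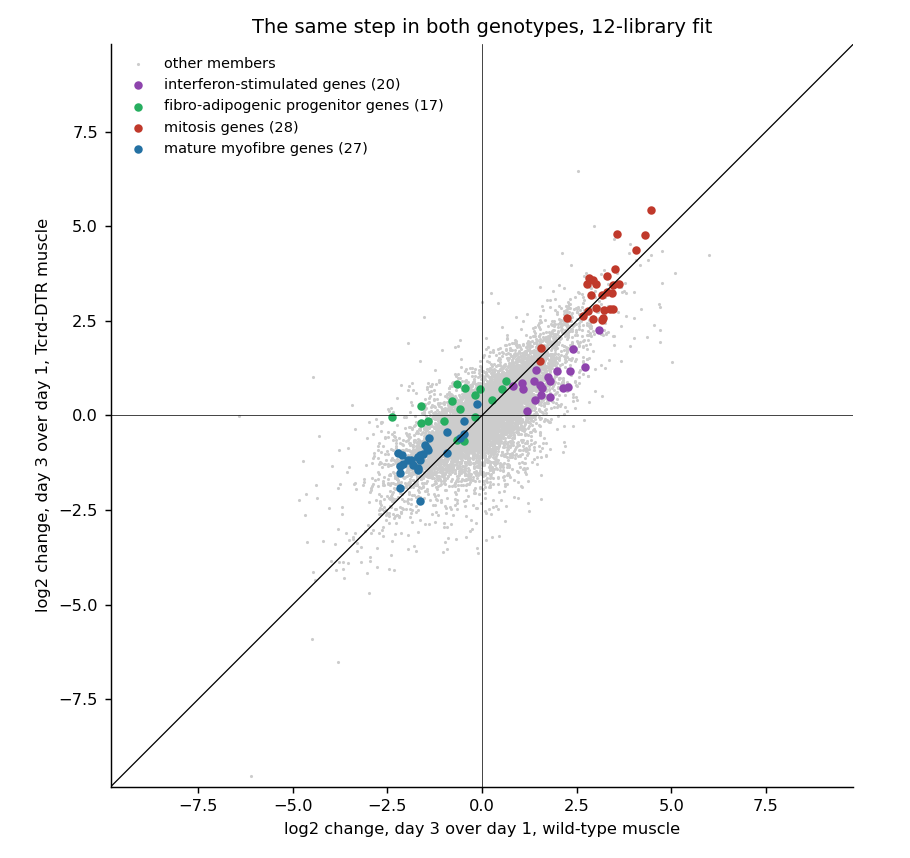
Log2 change from day 1 to day 3 of each of the 13785 members in wild-type muscle (horizontal axis) and Tcrd-DTR muscle (vertical axis), with the line of equal change and 4 lists in colour. Mitosis genes lie around the line in the upper right, and all 20 interferon-stimulated genes lie below it, although no single gene passed the test of the difference and, without D1.DTR replicate 2, 14 of the 20 had a difference below 0.

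Interferon-stimulated genes had the most negative median difference among lists of 10 or more, but not without D1.DTR replicate 2. In wild-type muscle 20 of 20 rose (median log2 change 1.66), and in Tcrd-DTR muscle 9 rose in the same fit (median 0.83). The difference was below 0 for 20 of 20 (median −0.85, against −0.02 over all members). Of the 20, 7 had an unadjusted p under 0.05, against 5.12% of all members, and none passed after adjustment. Rsad2 stood at 9.69, 17.6 and 17.8 CPM at day 1 and 84.1, 127 and 93.3 at day 3 in wild-type muscle and at 13.4, 32.6 and 14.7 and 58.4, 35.3 and 52.3 in Tcrd-DTR muscle, a log2 difference of −1.46 (SE 0.45, 95% interval −2.34 to −0.59, adjusted p = 0.882). Cmpk2, a mitochondrial nucleotide kinase, had a log2 change of 2.26 in wild-type and 0.76 in Tcrd-DTR muscle, a difference of −1.50 (SE 0.61, 95% interval −2.70 to −0.31, adjusted p = 0.957). D1.DTR replicate 2 was again the highest day 1 library for Rsad2 in Tcrd-DTR muscle. Without that library the median difference of the list was −0.17 and 14 of 20 differences were below 0. In the 6-library fit without it, 17 of 20 genes rose in Tcrd-DTR muscle (median log2 change 1.39), against 8 with it.

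Fibro-adipogenic progenitor genes showed the opposite order. In wild-type muscle 6 of 17 fell and none rose (median log2 change −0.59), and in Tcrd-DTR muscle 1 rose and 1 fell in the same fit (median 0.24). The difference was above 0 for 16 of 17 (median 0.76), 10 had an unadjusted p under 0.05 and none passed after adjustment. Over all 13785 members, 6691 differences were above 0 and 5.12% had an unadjusted p under 0.05 in the same edgeR test. Dpp4, a surface peptidase that marks stem-like progenitors, stood at 6.84, 18.2 and 22.5 CPM at day 1 and 5.78, 6.69 and 2.89 at day 3 in wild-type muscle and at 8.29, 11.9 and 15.6 and 9.196, 22.1 and 11.1 in Tcrd-DTR muscle, a log2 difference of 1.85 (SE 0.62, 95% interval 0.64 to 3.06, adjusted p = 0.882). Gsn, gelsolin, had a difference of 1.41 (SE 0.41, 95% interval 0.61 to 2.21, adjusted p = 0.882). Plin1, a lipid droplet coat of adipocytes, had a difference of 2.07 (SE 0.99, 95% interval 0.13 to 4.01, adjusted p = 0.967). For Dpp4 the wild-type days just failed to overlap (6.84 against 6.69 CPM), and the Tcrd-DTR days overlapped. Adipocyte and tendon genes had differences in the same direction, and so did mature myofibre genes (23 of 27 above 0, median 0.55). Of 10 pericyte and smooth muscle genes, 4 had a difference above 0 (median −0.07). Of 9 adipocyte genes 6 fell in wild-type and 1 in Tcrd-DTR muscle, and 7 differences were above 0 (median 0.80). Of 8 tendon genes 6 differences were above 0 (median 0.59), and the median was 0.18 without D3.DTR replicate 2 and 0.31 without D1.DTR replicate 1. The summed levels of the progenitor and tendon lists were highest among day 3 Tcrd-DTR libraries in replicate 2, at 4890 and 1481 CPM. The part of this library in the result was not tested beyond leaving it out. The progenitor list's median difference lay between 0.56 and 1.10 when single libraries were left out.

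Among myoblast differentiation genes, 6 of 26 had an unadjusted p under 0.05 for the difference, against 5.12% of all members. None passed after adjustment. Myog rose by a log2 change of 3.29 in wild-type and 2.17 in Tcrd-DTR muscle, a difference of −1.11 (SE 0.49, 95% interval −2.08 to −0.15, adjusted p = 0.957). Tnni1, the slow and developmental troponin I, changed by 2.10 and had 0.73 in Tcrd-DTR muscle, a difference of −1.38 (SE 0.42, 95% interval −2.21 to −0.55, adjusted p = 0.882). For MHC class II and dendritic cell genes the median difference was 0.68, or 1.17 without D1.DTR replicate 2 and 0.45 without D1.DTR replicate 1, and Ciita had a difference of 1.19 (SE 0.48, 95% interval 0.24 to 2.13, adjusted p = 0.955). Neutrophil genes had a median log2 change of −1.20 in wild-type and −1.97 in Tcrd-DTR muscle, and the median difference over the 15 genes took either sign when single libraries were left out (−0.61 to 0.43). Mitochondrially encoded genes fell in Tcrd-DTR muscle (7 of 11, median −1.22) and in none of 11 in wild-type muscle (median −0.40), and 1 of 11 differences had an unadjusted p under 0.05. D1.WT replicate 1 held 1.59% of its counts in mitochondrial genes, against 3.35% and 3.19% in the other day 1 wild-type libraries. The median difference of the list was −0.67, −0.37 without that library and −0.24 with the offset for length and GC content.

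**Figure D5:**
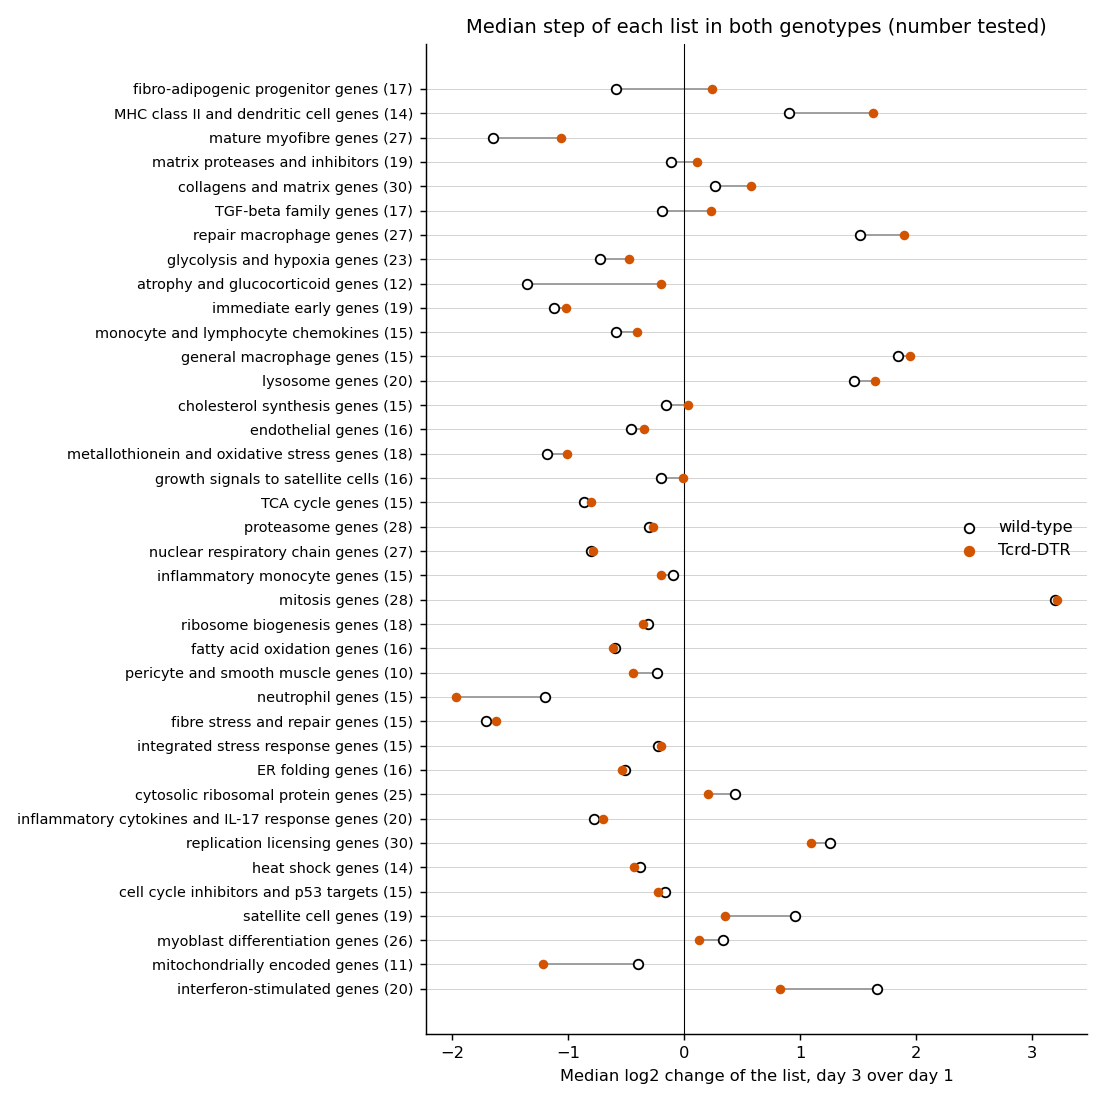
Median log2 change from day 1 to day 3 of each list with 10 or more tested genes (horizontal axis) in wild-type muscle (open circles) and Tcrd-DTR muscle (orange), in order of the median difference. Interferon-stimulated genes lie at the bottom with medians of 1.66 and 0.83 (the Tcrd-DTR median is 1.39 in the 6-library fit without D1.DTR replicate 2), and fibro-adipogenic progenitor genes at the top with −0.59 and 0.24.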

How the data were processed

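PolyA RNA of whole tibialis anterior was sequenced by the authors. The submitters' processing notes name STAR 2.7.3a and featureCounts, Subread 2.0.0 and mm10, with no roles given; library kit, strand setting and annotation were not stated there. The deposited table holds raw counts per gene symbol, which sum to 3782192 to 6599665 in the 6 libraries, and 0 of its columns belonged to no sample. Antisense, overlapping and near-identical genes may share reads in such counts.

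Genes with 10 or more counts in at least 3 of the 6 Tcrd-DTR libraries were fitted with edgeR 4.0.16 (R 4.3.3), with TMM scaling, a robust quasi-likelihood F test and Benjamini-Hochberg adjustment over 13785 genes at 0.05. Standard errors are the log2 change over the square root of F. Levels are TMM-scaled CPM, which can be compared between libraries and not between genes. A second fit of the 12 wild-type and Tcrd-DTR libraries of days 1 and 3 gave the wild-type step and the difference of steps. Alternatives were DESeq2 1.42.0 (test or size factors), library totals, no filter, edgeR's own filter, a replicate block, the 23-library fit, an offset for length and GC content, and leaving out each library. The median differences of lists under these settings were added after the data were seen. The scripts were tested on simulated counts with 100 genes changed 2-fold and 100 changed 4-fold. The test of the Tcrd-DTR step recovered 28 and 74 of them, with 9 false calls. The test of the difference of steps recovered 3 and 52, with 2 false calls. The p-values measure the spread between 3 libraries a group.

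Members and gene lists were chosen with earlier results of these data known. Named genes are the 15 largest folds each way among called genes whose groups do not overlap and whose higher group averages 20 CPM or more (unnamed gene models left out), the 2 smallest p each way in each list, a set of 13 marker genes, the 5 smallest p of the difference of steps, and list members named for their role, which were chosen after their values were seen, as were Dpp4, Gsn, Plin1, Cmpk2 and Tnni1. Not every gene the rule allows is named, and a few items are not reported here. Promoter windows are RefSeq sequences of GRCm38.p6.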

Additional observations from a re-analysis of the deposited data

How the results depend on the processing

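Of 131 called genes named here, 112 kept the call in every setting tried, 19 lost it in at least 1 and 0 changed sign. The count of changed genes ran from 1516 to 3815 when single libraries were left out, with 913 to 2066 that rose and 603 to 1749 that fell. Under library totals alone 496 fell; that scaling adds no correction for composition, and the cause of the shift was not tested. Genes that did not pass and changed sign were Gsn (log2 change 0.077) and Ly6c2 (0.0104) under library totals alone, and, when single libraries were left out, Ly6c2 (−0.57 to 0.62), Batf3 (−0.71 to 0.12) and Dpp4 (−0.23 to 0.48). The difference of steps called 0 genes, 48 with no filter on low counts and 6 with DESeq2; the cause was not tested. Same-numbered libraries of the 2 days did not deviate together (r of −0.04, −0.0033 and 0.03), so the replicate numbers were not read as pairs; with the replicate block 2222 genes were called (1288 rose and 934 fell), 3730 in the wild-type step and 0 for the difference. Under the block the named calls of Pax7 (adjusted p = 0.0722), Plin1 (0.0774), Chrnd (0.0679) and Des (0.152) were lost in edgeR, and 1 gene of the interleukin 17 pathway rose. Fewer genes of the mature fibre, glucose, citric acid cycle, respiratory chain and mitochondrial genome lists fell under the block, with counts given above. Each group had 3 libraries, and low genes such as the gamma-delta receptors were too shallow to compare.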
